A study of Homo sapiens with 4 samples.

Results

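The genes described here are 44 human genes of sterol and fatty acid synthesis, of which 34 were measured among 14884 named genes on the arrays. All 44 were listed by name from textbook pathways, with earlier results of these data known. They fall into 5 regulators (5 measured), 18 enzymes of cholesterol synthesis (14 measured), 14 enzymes of fatty acid synthesis (13 measured) and 7 genes of sterol transport and efflux (2 measured). The other 10, FDFT1, LSS, CYP51A1, SC5D, ME1, ABCA1, ABCG1, NPC1, NPC2 and NPC1L1, were not analysed here. RNA came from LS411N-5FU-R, a line derived from the human colon carcinoma line LS411N by selection for resistance to the antimetabolite 5-fluorouracil (5-FU). A pair of arrays came from cells given 50 nM verticillin A, an epipolythiodioxopiperazine made by fungi, for 3 days, and a pair from control cells cultured as long without it (0 nM). Both groups are the resistant line, the unselected line was not analysed here, and the labels do not say whether the line is 1 clone or whether 5-FU was in the medium. The labels do not say whether the arrays of a group are separate cultures, and the spread behind each p-value may therefore be technical.

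Cells build cholesterol from acetyl-CoA through mevalonate, squalene and lanosterol, and they build fatty acids from acetyl-CoA through malonyl-CoA. Both routes are transcribed under the sterol regulatory element-binding proteins (SREBPs), of which SREBP-2, from SREBF2, acts mainly on cholesterol genes and SREBP-1, from SREBF1, mainly on fatty acid genes. When sterols are plentiful, INSIG proteins hold SCAP, the escort of the SREBPs, in the endoplasmic reticulum, and when sterols are scarce SCAP carries the SREBPs to the Golgi, where they are cut and released to the nucleus.

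The values are the authors' log2 expression values, 1 per probe set and array. They ranged from 2.60 to 14.47, with array medians of 4.59 to 4.62. Arrays of a group correlated at 0.995 (verticillin A) and 0.994 (control) over all probe sets, and arrays of different groups at 0.990 to 0.992. Of 16 colon epithelial markers 14 were measured, and their summed linear level was 6153 to 6177 with verticillin A and 6515 to 6876 in control. That sum is carried mainly by the brightest of them, EPCAM, CLDN7 and KRT18, and 6 of the 14 lay below the median level of all genes. EPCAM, an epithelial surface protein, was at 10.94 and 10.94 with verticillin A and at 11.09 and 11.13 in control. KRT19 rose (log2 change 0.44 ± 0.09, SE, limma adjusted p = 0.0493) and VIL1, the gene of villin, fell (-0.62 ± 0.08, adjusted p = 0.0167). The intestinal markers CDX1, CEACAM5 and CEACAM6 had values of 3.21 to 4.17 on all 4 arrays. Others of the list stood higher, with GPA33 at 4.42 to 4.70 and KRT20 at 4.57 to 4.78. CDX2 was at 5.19 to 5.53 and VIL1 at 5.51 to 6.22. The broader epithelial gene KRT18 had 10.44 and 10.44 with verticillin A and 10.29 and 10.45 in control. Of 27 listed markers of leukocytes, fibroblasts, endothelium, adipocytes and hepatocytes only 14 were measured, with 2 for leukocytes and 2 for fibroblasts. These 14 lay between 3.38 and 4.83, and limma called 0 of them. At an unadjusted p under 0.05 there were 0, against 26.7% of all genes. The array values of a bulk culture cannot tell fewer cells of a kind from less RNA per cell.

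Verticillin A was accompanied by higher RNA for most of the measured cholesterol enzymes and by lower RNA for both SREBP genes, while most fatty acid genes did not pass the test. Across the 34 measured genes 12 rose and 2 fell (limma, adjusted p under 0.05 over all 14884 genes), and 20 did not pass. Among all genes tested 3.55% were called higher and 5.10% lower. The median log2 change, verticillin A minus control, was 0.215 over the 34 genes and -0.006 over all genes. At an unadjusted p under 0.05 there were 23 of the 34 genes (67.6%), 19 of them with a positive change, against 26.7% of all genes. In 22 of the 34 genes both verticillin A arrays lay above both control arrays, in 7 both lay below, and in 5 the groups overlapped. The shares over all genes were 25.7% above and 29.1% below. Fitting all 53617 probe sets of the table instead of the named genes, which changes both the variance prior and the number of tests adjusted for, left 0 of the 34 past the threshold in limma, with 19 at an unadjusted p under 0.05 and a lowest adjusted p of 0.0526. That fit called 0.0403% of all named genes higher and 0.0806% lower, so the loss of calls was not particular to the 34. Fits without 1 array in turn had fewer calls, both among the 34 and over all genes, and are given here by their changes only. Each of these fits leaves 1 array in a group and takes the spread within groups from the other group, so the lone array is assumed to vary alike. The log2 change of INSIG1 was 0.92 without control replicate 1 and 1.08 without control replicate 2.

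Of the 5 regulators, 1 rose, 2 fell and 2 did not pass, while 3.55% of all genes were called higher and 5.10% lower. INSIG1, whose protein retains SCAP and is itself a sterol-regulated gene, had log2 levels of 9.67 and 9.73 with verticillin A and of 8.61 and 8.78 in control. Both treated arrays lay above both control arrays, by a log2 change of 1.0 ± 0.08 (SE, n = 2 per group, 95% interval 0.79 to 1.21, limma adjusted p = 0.00908), the largest change among the 34 genes. INSIG2, the second INSIG gene, which is less dependent on sterols, was at 7.70 and 7.81 with verticillin A and 7.77 and 7.93 in control. Its groups overlapped, and its change of -0.10 had a 95% interval of -0.32 to 0.13 (adjusted p = 0.575). The change of INSIG1 exceeded that of INSIG2 by 1.10 on the log2 scale, a difference that was not itself tested.

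SREBF1 was at 6.88 and 6.86 with verticillin A and at 7.26 and 7.40 in control, with no overlap. It was 1.37-fold lower (log2 change -0.46 ± 0.08, SE, limma adjusted p = 0.0313). SREBF2 was at 8.62 and 8.64 with verticillin A and at 8.93 and 8.99 in control, again without overlap, and was 1.26-fold lower (-0.33 ± 0.07, adjusted p = 0.0472). Both genes of the SREBP factors were therefore lower on the same arrays on which most measured enzymes of the cholesterol branch were higher. Centring the arrays on their medians ended the call of SREBF2 (-0.29, adjusted p = 0.0515), and with the replicate number as a block both lost their calls (adjusted p = 0.0603 for SREBF1 and 0.0832 for SREBF2). SCAP, at 7.87 and 7.88 with verticillin A and 7.83 and 7.95 in control, overlapped between the groups (change -0.01, interval -0.20 to 0.18, adjusted p = 0.944). The array values measure RNA and say nothing of how much SREBP was cut or nuclear.

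**Figure D1:**
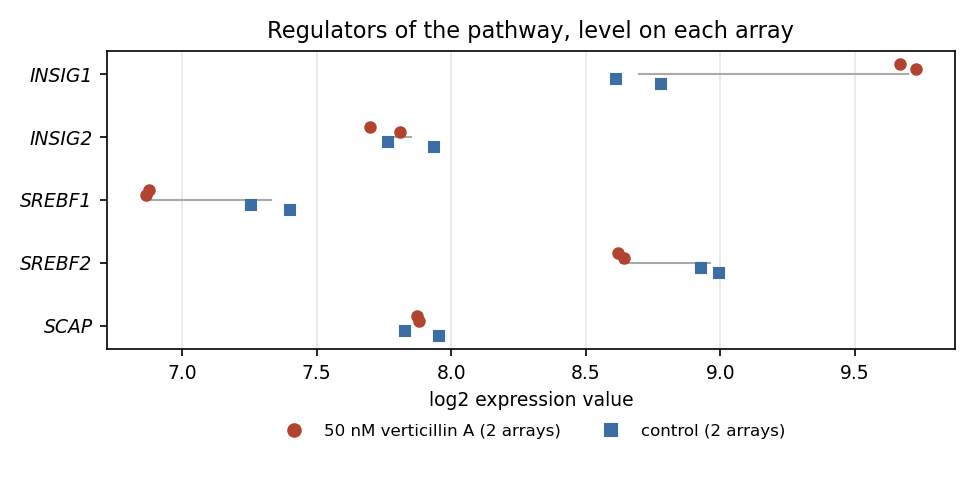
Log2 expression value (horizontal axis) of the 5 regulators on each of the 4 arrays, with red circles for 50 nM verticillin A and blue squares for control, and grey lines joining the group means. The INSIG1 circles (9.67 and 9.73) lie right of its squares (8.61 and 8.78), the SREBF1 and SREBF2 circles lie left of theirs, and INSIG2 and SCAP overlap; values are to be compared within a gene.

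Promoter windows from RefSeq (GRCh38.p14, 250 bases before to 50 after the gene start) matched 31 of the 34 genes. They were searched on both strands for 4 motifs, the sterol regulatory element TCACNCCAC bound by SREBPs, the CCAAT box bound by NF-Y, a usual partner of SREBPs, the E-box CACGTG, and the LXR element, spelled AGGTCA, 4 bases of any kind and AGGTCA. The windows of 2 regulators that moved in opposite directions are shown to place these motifs, in lower case with sterol regulatory elements and CCAAT boxes of either strand in capitals. INSIG1 lies at chr7:155297628-155297927 (plus strand) and SREBF2 at chr22:41832855-41833154 (plus strand).
INSIG1: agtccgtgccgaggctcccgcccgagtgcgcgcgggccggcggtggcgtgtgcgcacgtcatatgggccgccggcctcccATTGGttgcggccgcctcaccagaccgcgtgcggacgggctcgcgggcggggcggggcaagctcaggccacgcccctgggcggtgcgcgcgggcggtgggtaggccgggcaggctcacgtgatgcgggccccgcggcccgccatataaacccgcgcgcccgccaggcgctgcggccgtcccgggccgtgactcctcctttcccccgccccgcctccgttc
SREBF2: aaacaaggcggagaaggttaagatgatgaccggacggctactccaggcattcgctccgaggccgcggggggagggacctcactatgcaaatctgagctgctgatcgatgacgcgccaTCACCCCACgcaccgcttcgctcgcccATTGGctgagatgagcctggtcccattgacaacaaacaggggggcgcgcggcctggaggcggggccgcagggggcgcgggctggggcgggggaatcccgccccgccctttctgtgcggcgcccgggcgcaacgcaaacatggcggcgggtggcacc
The SREBF2 window held 1 sterol regulatory element and 1 CCAAT box, and it was the only 1 of the 31 windows with that spelling of the element, which 1.11% of the 10749 windows of tested genes hold. The INSIG1 window held 1 CCAAT box and 1 E-box. An E-box stood in 3 of the 31 windows (9.68%), against 9.02% of windows of tested genes, and the LXR element in 0 of either. A match describes letters in a window and is not a bound site, and a window without a match says nothing about the factor.

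The cholesterol branch held 14 measured enzymes, of which 10 rose (71.4%, against 3.55% of all genes), 0 fell and 4 did not pass. Their median log2 change was 0.539, against -0.006 over all genes. The groups did not overlap in any of the 14, with the treated arrays above in 12 and below in 2. Over all genes the treated arrays lay above without overlap in 25.7% and below in 29.1%. Of the 7 measured enzymes from acetyl-CoA to farnesyl diphosphate 6 rose (median 0.553), and of the 7 from squalene to cholesterol 4 rose (median 0.348). All 14 are shown by array in the plot of cholesterol synthesis genes.

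ACAT2, the cytosolic thiolase that joins acetyl-CoA units at the head of the route, was at 7.12 and 7.25 with verticillin A and 6.34 and 6.32 in control, 1.82-fold higher (log2 change 0.86 ± 0.08, SE, limma adjusted p = 0.00930). HMGCS1, the cytosolic HMG-CoA synthase, was at 8.70 and 8.73 with verticillin A and 8.18 and 8.14 in control (1.47-fold, adjusted p = 0.0162). For both genes the gap between the groups was several times the gap within either group. MVK, the mevalonate kinase, was at 7.19 and 7.23 with verticillin A and 6.64 and 6.68 in control (0.55 ± 0.07, adjusted p = 0.0166). PMVK, which adds the next phosphate, had 4.88 and 4.79 with verticillin A and 4.92 and 5.00 in control, with an interval of -0.32 to 0.06 around its change of -0.13 (adjusted p = 0.366). PMVK was thus the only enzyme of the mevalonate steps listed that did not rise, on values that were low on every array.

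MVD, the decarboxylase that makes isopentenyl diphosphate, showed the widest gap of the branch, with 7.17 and 7.17 under verticillin A and 6.30 and 6.20 in control (0.92 ± 0.07, limma adjusted p = 0.00797). IDI1, the isomerase of that product, was at 8.45 and 8.40 with verticillin A and 7.90 and 7.74 in control (0.61 ± 0.08, adjusted p = 0.0208). The spread within control was wider for IDI1 than for MVD, and neither gene's groups overlapped. FDPS, the farnesyl diphosphate synthase, was at 7.68 and 7.79 with verticillin A and 7.15 and 7.25 in control (1.45-fold, adjusted p = 0.0235). FDPS has a second probe set, at 5.47 and 5.51 with verticillin A and 5.16 and 5.18 in control, which differed in the same direction by 0.32.

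In the sterol part of the route, SQLE, the squalene epoxidase and a rate-controlling step, was at 9.70 and 9.69 with verticillin A and 9.31 and 9.38 in control, 1.27-fold higher (limma adjusted p = 0.0419). MSMO1, which removes methyl groups at carbon 4 of the sterol ring, was at 11.59 and 11.65 with verticillin A and 11.19 and 11.07 in control (0.49 ± 0.08, adjusted p = 0.0267). Both lost their calls with the replicate number as a block (adjusted p = 0.0799 for SQLE and 0.0586 for MSMO1). NSDHL, which acts with MSMO1 in that demethylation, was at 9.56 and 9.65 with verticillin A and 8.99 and 8.96 in control (1.55-fold, adjusted p = 0.0138). EBP, the sterol isomerase, was at 8.03 and 8.03 with verticillin A and 7.29 and 7.39 in control (1.62-fold, adjusted p = 0.0119). These 2 genes had the largest changes of the sterol part.

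The last reductase, DHCR7, did not pass, with 8.95 and 8.94 under verticillin A and 8.68 and 8.79 in control (change 0.21, interval 0.02 to 0.39, limma adjusted p = 0.153). HSD17B7, the 3-ketosteroid reductase that completes each demethylation, was at 6.98 and 7.08 with verticillin A and 6.96 and 6.81 in control (0.14, interval -0.07 to 0.36). Its pseudogene HSD17B7P2 was measured separately, with a change of 0.26 (adjusted p = 0.0730), and array probes may not separate the pair. TM7SF2, a sterol C14 reductase whose step LBR can also carry out, had 6.32 and 6.16 with verticillin A and 6.34 and 6.62 in control (-0.24, interval -0.53 to 0.06). Of these 3, the treated arrays lay above control for DHCR7 and HSD17B7 and below it for TM7SF2, and no change passed the threshold.

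**Figure D2:**
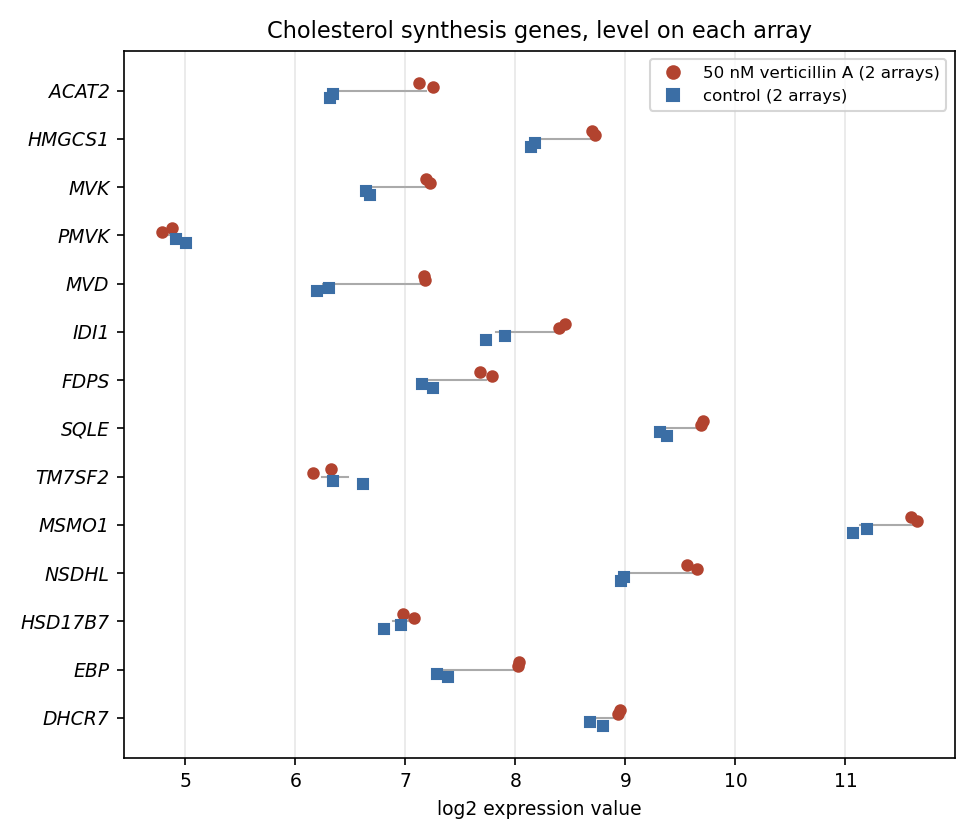
Log2 expression value (horizontal axis) of the 14 measured cholesterol synthesis genes in pathway order from top to bottom, with red circles for 50 nM verticillin A, blue squares for control and grey lines between group means. The circles lie right of the squares in 12 genes, with the widest gap for MVD (7.17 and 7.17 against 6.30 and 6.20), and left of them for PMVK and TM7SF2.

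CCAAT boxes were common in the promoter windows of the cholesterol enzymes. At least 1 stood in 10 of the 12 windows matched (83.3%), in 6 of the 12 windows of fatty acid enzymes (50.0%), and in 36.0% of the windows of tested genes. Among genes called higher 8 of 9 matched windows held one (88.9%), and among genes not called 11 of 20 (55.0%). Those called higher are cholesterol enzymes except INSIG1, and those not called include all 12 matched fatty acid genes. Call and branch therefore cannot be told apart in these shares. These shares were not tested, and they leave out ACAT2, SQLE and FASN, which were called higher and had no matched window. The windows of MVD and NSDHL, an early and a late enzyme that both rose, are shown because each holds several boxes close to the gene start, with CCAAT boxes of either strand in capitals. MVD lies at chr16:88663042-88663341 (minus strand) and NSDHL at chrX:152830813-152831112 (plus strand).
MVD: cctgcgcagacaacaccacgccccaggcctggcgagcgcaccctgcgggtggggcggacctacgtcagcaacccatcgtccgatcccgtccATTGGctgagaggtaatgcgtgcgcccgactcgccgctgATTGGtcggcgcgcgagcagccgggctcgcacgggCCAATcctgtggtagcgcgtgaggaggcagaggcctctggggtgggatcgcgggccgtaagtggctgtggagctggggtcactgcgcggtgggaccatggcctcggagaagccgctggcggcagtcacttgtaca
NSDHL: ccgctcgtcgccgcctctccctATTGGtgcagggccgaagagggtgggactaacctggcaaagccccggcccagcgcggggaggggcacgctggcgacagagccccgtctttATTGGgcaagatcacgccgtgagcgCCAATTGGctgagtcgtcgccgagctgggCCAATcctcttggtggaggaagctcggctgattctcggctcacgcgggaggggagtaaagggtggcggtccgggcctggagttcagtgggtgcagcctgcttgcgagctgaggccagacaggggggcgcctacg
The MVD window held 3 boxes and the NSDHL window 5, a pair of which overlap. The windows of IDI1 and PMVK held 0, and IDI1 rose while PMVK did not pass. Those of the cholesterol enzymes TM7SF2, HSD17B7 and DHCR7 held 1, 2 and 2, and these enzymes did not pass. The presence of a box and the call thus did not go together in every gene.

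The fatty acid branch held 13 measured genes, of which 1 rose (7.69%, against 3.55% of all genes), 0 fell and 12 did not pass. The gene that rose was FASN, the fatty acid synthase that builds palmitate, at 10.32 and 10.40 with verticillin A and 9.49 and 9.66 in control. The groups did not overlap, and the difference was 1.72-fold (log2 change 0.78 ± 0.09, SE, limma adjusted p = 0.0128). The branch median was 0.127, with 10 changes above 0 and 3 below. At an unadjusted p under 0.05 there were 7 of the 13 (53.8%, against 26.7% of all genes), 6 of them positive. The count of 1 depended on the setting. It became 4 when the dimmest 50% of genes was left out (FASN, ELOVL1, ELOVL6 and LPIN1, with 14.4% of all genes then called higher) and 5 with a mean-variance trend in the prior (FASN, ACLY, ACACA, ELOVL1 and ELOVL6, with 7.17% of all genes called higher).

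The steps that supply FASN had smaller differences. ACLY, which makes cytosolic acetyl-CoA for both routes, was at 11.36 and 11.40 with verticillin A and 11.06 and 11.25 in control (change 0.22, interval 0.003 to 0.45, limma adjusted p = 0.183). ACACA, the acetyl-CoA carboxylase of lipogenic tissue, was at 10.26 and 10.34 with verticillin A and 10.04 and 10.13 in control (0.22, interval 0.03 to 0.40, adjusted p = 0.142). For both the treated arrays lay above the control arrays without passing the threshold. ACACB, the mitochondrial carboxylase that restrains fatty acid oxidation, went the other way, at 6.51 and 6.54 with verticillin A and 6.76 and 6.69 in control (-0.20, interval -0.38 to -0.03, adjusted p = 0.143). ACSS2, which makes acetyl-CoA from acetate, overlapped between the groups (-0.07, interval -0.31 to 0.16). The change of FASN exceeded that of ACACA by 0.57 on the log2 scale, which was not tested.

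The 3 elongases all had treated arrays above control arrays, as did 25.7% of all genes. ELOVL1, which extends very long chains, was at 8.64 and 8.47 with verticillin A and 8.16 and 8.24 in control (change 0.35, interval 0.14 to 0.57, limma adjusted p = 0.0659), the largest change among the fatty acid genes that did not pass. ELOVL6, which extends palmitate, was at 9.81 and 9.85 with verticillin A and 9.59 and 9.58 in control (0.24, adjusted p = 0.0851), and ELOVL5 had a change of 0.13 (adjusted p = 0.328). The 4 desaturases had a median change of 0.035, from -0.10 for FADS1 to 0.06 for SCD. SCD, the stearoyl-CoA desaturase and a textbook SREBP-1 target, was at 12.75 and 12.72 with verticillin A and 12.63 and 12.72 in control (0.06, interval -0.11 to 0.24, adjusted p = 0.647). That probe set stood at percentile 99.9 of mean level among the genes tested. The second SCD probe set, at 7.20 and 7.28 with verticillin A and 7.13 and 7.02 in control, differed by 0.17. FADS1, FADS2 and FADS3, of which the first 2 make polyunsaturated fatty acids, had changes of -0.10, 0.03 and 0.04, and their 3 intervals together span -0.28 to 0.21. LPIN1, a phosphatidate phosphatase of glycerolipid synthesis and an SREBP target, was at 6.69 and 6.56 with verticillin A and 6.27 and 6.43 in control (0.28, interval 0.05 to 0.50, adjusted p = 0.127).

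**Figure D3:**
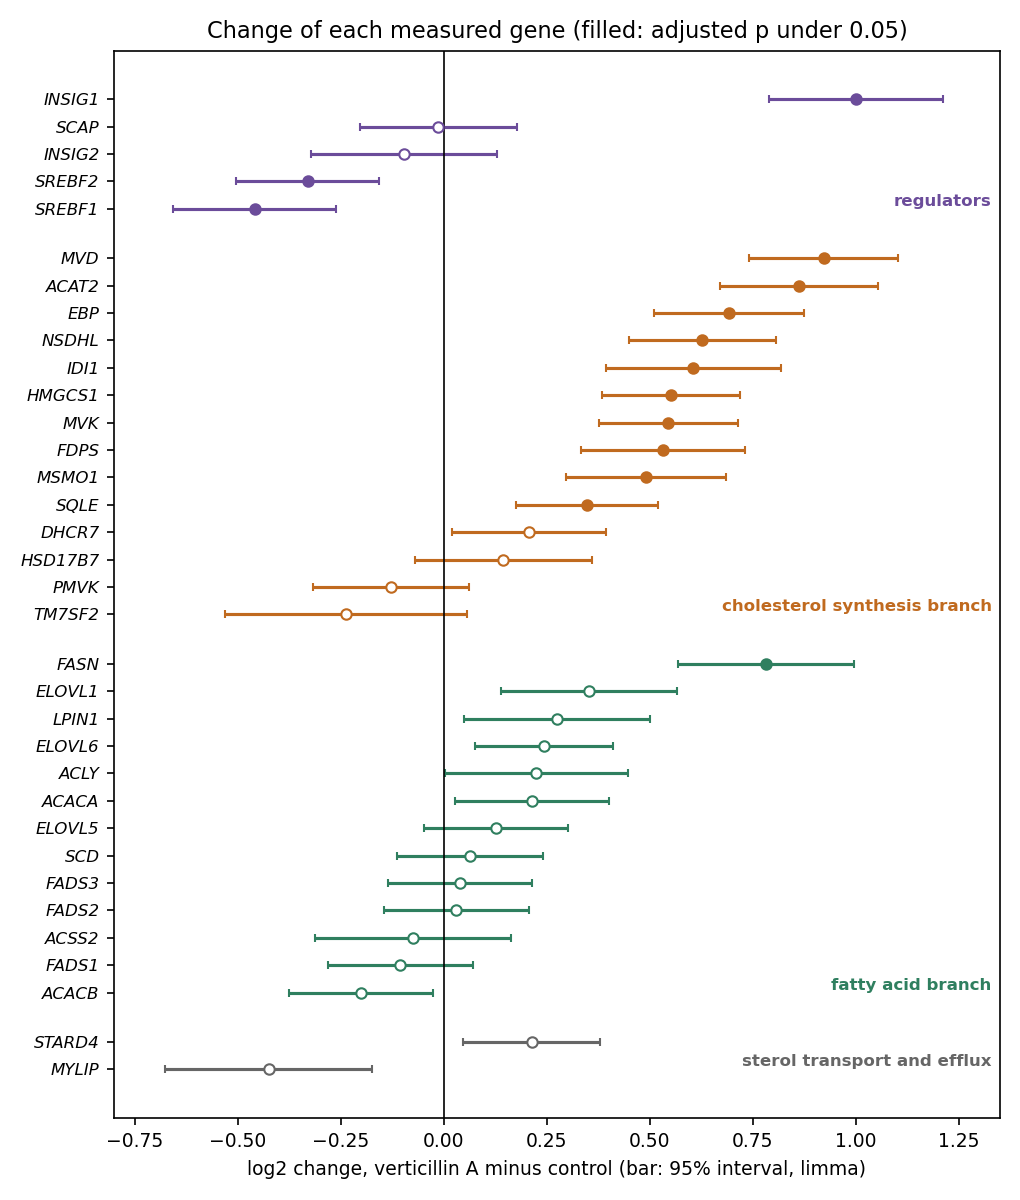
Log2 change, verticillin A minus control (horizontal axis), of the 34 measured genes in their 4 groups, with 95% intervals from limma as bars and filled points where the adjusted p was under 0.05. Filled points right of 0 are INSIG1, 10 cholesterol synthesis genes and FASN, those left of 0 are SREBF1 and SREBF2, and the 4 desaturases are open points between -0.10 and 0.06.

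Set side by side, 10 of 14 cholesterol enzymes (71.4%) and 1 of 13 fatty acid enzymes (7.69%) rose, against 3.55% of all genes. The fatty acid count depended on the setting. It reached 5 with a mean-variance trend in the prior, where 7.17% of all genes were called higher and the cholesterol count stayed at 10. The branch medians of 0.539 and 0.127 differed by 0.412, and the difference stayed between 0.363 and 0.452 when an array was left out in turn. As deviations from each gene's mean over the 4 arrays, the cholesterol branch had medians of 0.235 and 0.283 on the verticillin A arrays and of -0.238 and -0.275 on the control arrays. The fatty acid branch had 0.053 and 0.073 on the verticillin A arrays and -0.101 and -0.025 on the control arrays. Both branches were higher on each treated array than on either control array, with a narrower gap in the fatty acid branch, and control replicate 2 lay nearer the treated arrays there than control replicate 1 did. The medians over all genes were -0.007 and -0.005 with verticillin A and -0.012 and 0.020 in control. The difference between the branches was not tested, and with 2 arrays per group the smallest two-sided p that an exact permutation over arrays allows is 0.333.

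**Figure D4:**
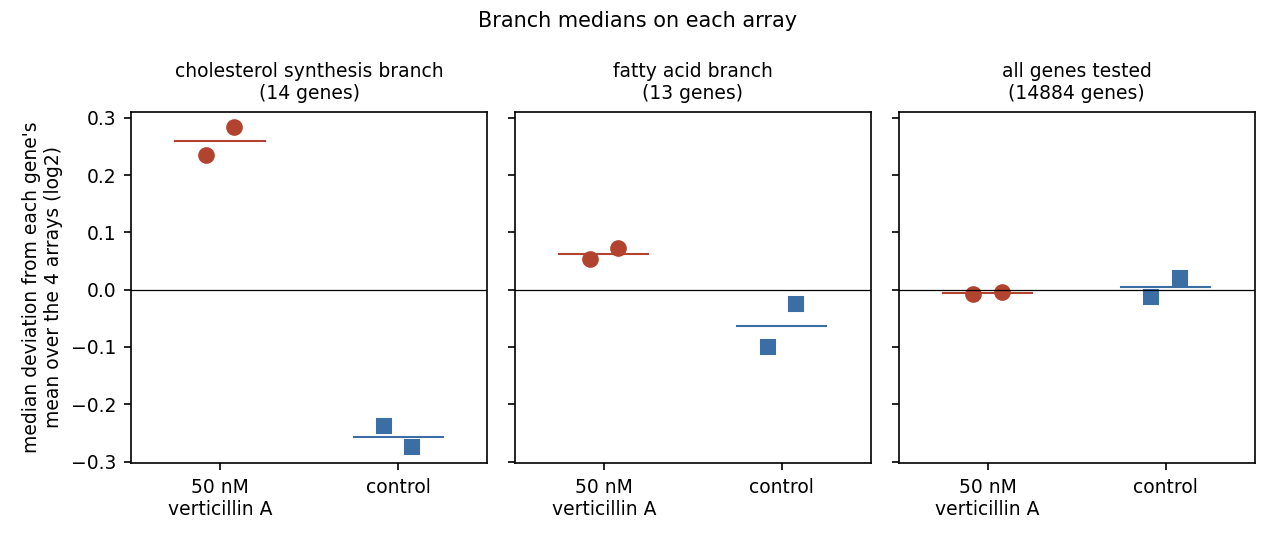
Median deviation (vertical axis, log2) from each gene's mean over the 4 arrays for the cholesterol synthesis branch (14 genes), the fatty acid branch (13 genes) and all 14884 genes tested, with 1 point per array, red circles for 50 nM verticillin A, blue squares for control and lines at the group means. The cholesterol points stand at 0.235 and 0.283 against -0.238 and -0.275, the fatty acid points at 0.053 and 0.073 against -0.101 and -0.025, and the points of all genes close to 0.

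Of the sterol transport genes only STARD4 and MYLIP were measured, and neither passed. STARD4, a cytosolic sterol carrier and SREBP-2 target, was at 9.21 and 9.17 with verticillin A and 8.97 and 8.98 in control (change 0.21, interval 0.05 to 0.38, limma adjusted p = 0.113). MYLIP, a ubiquitin ligase induced by LXR that targets the LDL receptor for degradation, was at 7.39 and 7.21 with verticillin A and 7.63 and 7.81 in control (-0.43, interval -0.68 to -0.17, adjusted p = 0.0621). Without overlap, STARD4 lay above its control arrays, like 25.7% of all genes, and MYLIP lay below its own, like 29.1%. Both passed when the dimmest 50% of genes was left out, 2 of the 5 additional calls under that setting. It called 14.4% of the genes then tested higher and 17.9% lower. Both also passed with a mean-variance trend in the prior, where 7.17% of all genes were called higher and 9.14% lower. Neither passed under the other alternatives with all arrays. ABCA1 and ABCG1, also LXR targets and listed in this group, were not analysed here.

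Of 123 further genes listed for the same and neighbouring pathways 64 were measured, of which 4 rose (6.25%, against 3.55% of all genes) and 3 fell (4.69%, against 5.10%). Of 6 measured genes of sterol and isoprenoid synthesis limma called 0, with a median of 0.082. At an unadjusted p under 0.05 there were 2 (33.3%, against 26.7% of all genes). ERG28, a scaffold of sterol demethylation, had a change of 0.17 (adjusted p = 0.179) and LBR, the other sterol C14 reductase, of -0.04 (adjusted p = 0.807). Of 13 genes of sterol uptake, esters and efflux limma called 0, with a median of 0.011. An unadjusted p under 0.05 was reached by 4 (30.8%, against 26.7% of all genes). Among the 13, SOAT1, which esterifies cholesterol, had a change of 0.06. Of 4 genes of SREBP processing and sterol sensing 1 rose. It was GPS2 (0.35 ± 0.07, SE, adjusted p = 0.0458), known as a subunit of a nuclear corepressor complex and not as part of SREBP cleavage, while RNF139, an endoplasmic reticulum ubiquitin ligase that binds INSIG, had -0.24 (adjusted p = 0.0913).

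Of 19 further genes of fatty acid synthesis, elongation and activation 2 rose (10.5%, against 3.55% of all genes) and 2 fell (10.5%, against 5.10%), 15 did not pass, and the median was 0.066. ELOVL3, an elongase of saturated and monounsaturated very long chains, was at 6.28 and 6.75 with verticillin A and 5.46 and 5.40 in control (2.12-fold, limma adjusted p = 0.0221). Its treated arrays differed from each other more than its control arrays did, yet both lay well above control. ACSL5, an acyl-CoA synthetase of intestinal epithelium, was at 9.72 and 9.72 with verticillin A and 10.44 and 10.42 in control (1.63-fold lower, adjusted p = 0.00985). ACSL1, of the same family, was 1.27-fold higher (adjusted p = 0.0428), so the 2 synthetases moved in opposite directions. MID1IP1, which promotes assembly of active acetyl-CoA carboxylase, was 1.28-fold lower (adjusted p = 0.0398), a fall that did not pass when its probe sets were averaged (adjusted p = 0.0626).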

How the data were processed

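Total RNA (250 ng per sample, per the labels' protocols) was labelled and hybridised to whole-transcript arrays. The values deposited by the authors are log2 expression levels, 1 for each probe set on each array, made with GCRMA per the submitters' processing notes. The log2 scale was read from the values, and its version, annotation and build are not given in the sources used. The arrays have similar distributions, so a shift in RNA content per cell is not visible, and no detection calls were used.

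Of 53617 probe sets, 16098 had 1 gene symbol and 0 several in the platform annotation, 37519 were unnamed here, and all 16098 matched the RefSeq gene table (GRCh38.p14) by gene identifier. Of several probe sets of a gene (779 genes), that with the highest mean was used, leaving 14884 genes, with no filter on low values. limma 3.58.1 (R 4.3.3, lmFit and eBayes) was fitted to the 4 arrays with treatment as factor, on 2 residual and 3.43 prior degrees of freedom. Adjusted p is Benjamini-Hochberg over the 14884 genes, threshold 0.05. Log2 changes are verticillin A minus control, with moderated SE and 95% intervals. The number of arrays limits the precision.

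The 44 genes, the lists beside them and the tests were chosen with earlier results of these data known. Every measured gene of the 44 could be named, called ones with the value on each array, and of the other lists called genes and a few others. Alternatives were a replicate block, quantile normalization, median centring, leaving out the dimmest 50% of genes, averaging probe sets, fitting all probe sets, a mean-variance trend and leaving out each array. The fit was tested on simulated data.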

Additional observations from a re-analysis of the deposited data

How the results depend on the processing

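No measured gene of the 44 that was called changed direction under the 7 alternatives with all arrays or when an array was left out. The branch medians and their difference moved by less than 0.054 throughout, the largest SD between replicate arrays over both branches and groups. That SD came from the fatty acid branch in control, and the SDs of the cholesterol branch were smaller. The cholesterol median of 0.539 became 0.578 with centring and 0.501 without verticillin A replicate 2. Quantile normalization and averaging probe sets kept all 14 calls. Called genes over all 14884 were 528 higher and 759 lower, and 750 and 668 when arrays were centred, which raised all log2 changes by 0.039, left 1 of the 34 lower (SREBF1) and called 2 fatty acid genes higher. With the replicate number as a block, 228 genes were called higher and 364 lower, and of the 34 genes 10 were higher and 0 lower. The deviations of same-numbered arrays correlated at 0.012, and the labels give no shared source for a number. Leaving out the dimmest 50% of genes gave 1070 higher and 1329 lower genes and 4 fatty acid genes higher, with fewer genes tested, and PMVK was left out. The mean-variance trend gave 1067 higher and 1361 lower genes and 5 fatty acid genes higher, and the cause was not tested. Fitting all probe sets, which re-estimates the variance prior and adds tests to the adjustment, left 6 of the named genes higher and 12 lower and, of the 34, 0 higher and 0 lower, hence 0 in the cholesterol and 0 in the fatty acid branch.

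With 1 array fewer, and so fewer residual degrees of freedom, genes called higher numbered 0 to 52 and lower 0 to 105. Of the 34 genes, 0 to 3 were higher and 0 lower, with 0 to 2 cholesterol and 0 fatty acid genes higher. Changes near 0 turned sign for SCAP (0.026 with centring, and -0.076 to 0.051 over the fits without 1 array), FADS2 (-0.006 to 0.068 without 1 array) and ACSS2 (-0.174 to 0.025 without 1 array). GPS2, ACSL1, GPAT3, DGAT2, MID1IP1 and KRT19 lost their calls with the replicate block, and these 6, ELOVL3, ACSL5 and VIL1 lost them when all probe sets were fitted.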

Other observations

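Of 11 measured genes of glycerolipid synthesis and lipid droplets 1 rose (9.09%, against 3.55% of all genes), 1 fell (9.09%, against 5.10%) and 9 did not pass, with a median log2 change of 0.184. GPAT3, a glycerol-3-phosphate acyltransferase that starts triglyceride synthesis, was at 8.18 and 8.14 with verticillin A and 7.61 and 7.71 in control (1.41-fold higher, limma adjusted p = 0.0235). DGAT2, which adds the last acyl chain of triglycerides, was at 4.64 and 4.57 with verticillin A and 5.02 and 5.18 in control (1.40-fold lower, adjusted p = 0.0315), on low values. PNPLA3, a droplet lipase and SREBP-1 target, had a change of 0.33 and an adjusted p of 0.0515, and the droplet coat gene PLIN2 had 0.11 (adjusted p = 0.435).

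Of 11 measured genes of fatty acid oxidation limma called 0, with a median of 0.048. At an unadjusted p under 0.05 there was 1 (9.09%, against 26.7% of all genes). That gene was ACAA2, a mitochondrial thiolase, with a change of -0.28 ± 0.07 (SE, adjusted p = 0.0731). CPT1A, the entry step of fatty acids into mitochondria, had 0.18 ± 0.08 (adjusted p = 0.212), and PPARA, a transcription factor of oxidation genes, 0.11 ± 0.07 (adjusted p = 0.441).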
